A study of Mus musculus with 8 samples.

Results

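Aminoacyl-tRNA synthetases join each amino acid to its tRNA. The set described here holds 36 synthetase genes, all listed by symbol, out of 29621 genes in the files. The list was chosen with earlier results of these data known. Lars2, the mitochondrial leucine enzyme, was left out of the set. Of the 36, 19 encode cytosolic enzymes or their subunits, 15 encode mitochondrial enzymes, and 2 (Gars and Kars) encode the glycine and lysine enzymes that serve both compartments. Total RNA of the whole pancreas was sequenced, after ribosomal RNA had been depleted, in 4 libraries from KPC mice and 4 from KPC-OG mice, all C57BL/6 and at postnatal day 42. KPC mice carried p48-Cre, which is driven from the Ptf1a locus active in pancreatic progenitors and acinar cells, an oncogenic allele that this Cre switches on, and Trp53 fl/fl. KPC-OG mice carried the same 3 elements and also R26tm1(LSL-OG), a Rosa26 insertion behind a Cre-removable stop cassette. Both groups therefore share the tumor alleles, and no pancreas without them was measured. Nothing in the labels ties each library to its own mouse, and p-values here cover the spread between libraries, which may be partly technical.

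Each cytosolic protein is built from amino acids charged by the cytosolic synthetases, and several of these enzymes sit together in a multi-synthetase complex held by scaffold proteins. Mitochondria translate a few proteins of the respiratory chain with their own tRNAs, which are charged by a separate, nuclear-encoded set of synthetases. Pancreatic acinar cells make and secrete large amounts of digestive enzymes and so have a high demand for charged tRNA. Many cytosolic synthetase genes are known targets of ATF4, the transcription factor of the amino acid and integrated stress response.

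Estimated reads per library ran from 7373286 to 11292570 (KPC) and from 13671606 to 18292115 (KPC-OG). Reads assigned to Lars2 alone took 20.8% to 30% of those assigned to genes in KPC and 3.73% to 7.12% in KPC-OG. The fitted change of these reads was -3.78 ± 0.67 on the log2 scale (SE, edgeR adjusted p = 0.00249). Whether they came from Lars2 mRNA was not tested. Reads on transcripts of mitochondrial DNA took 0.315% to 0.466% in KPC and 0.721% to 1.05% in KPC-OG. Acinar cell markers marked the tissue: their summed level ran from 382871 to 637198 CPM in KPC and from 52359 to 205161 CPM in KPC-OG. By edgeR 10 of the 12 fell, with a median log2 change of -2.36. The gap was smaller in TPM, a level per transcript length: 260716 to 341013 in KPC and 142054 to 238219 in KPC-OG. Of the other lists, 7 of 8 duct, 6 of 7 fibroblast, 8 of 8 macrophage, 1 of 6 islet and 2 of 3 tested liver markers rose, and none of the 6 lymphocyte, 5 endothelial or 3 adipocyte markers tested passed in either direction. The liver rise was uneven: the summed level was 13.9 to 28.2 CPM in KPC and 18.4 to 271 CPM in KPC-OG. Of the 3, 1 was higher without overlap, and limma-voom called 0 higher. CPM here is the estimated read count over an effective size, which is the library's read total times its TMM factor. CPM values therefore do not sum to the same total in each library, and a summed CPM is not a share of its reads. The factors were 0.484 to 0.654 in KPC and 1.14 to 2.27 in KPC-OG, and a smaller factor gives higher CPM. Every comparison in CPM carries these factors. TMM scaling assumes that most genes are equal between libraries. In bulk tissue, fewer cells of a type and less RNA per cell cannot be told apart.

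Relative to the typical gene, the cytosolic synthetases were lower in KPC-OG than in KPC pancreas, while most mitochondrial synthetases did not pass the test. Of the 19 cytosolic genes, 15 fell and none rose, against 16.6% of all 14267 tested genes that fell and 17.4% that rose (edgeR quasi-likelihood test, adjusted p under 0.05). Both genes that serve the 2 compartments fell. Of the 15 mitochondrial genes, 3 fell and none rose. At an unadjusted p under 0.05 no member of any group was higher either, and neither DESeq2 nor limma-voom called one higher. The median log2 change was -0.88 for the cytosolic genes and -0.22 for the mitochondrial ones, against 0.09 for all tested genes. All 36 passed the filter on low counts, so no member is missing from these counts. The acinar, duct, fibroblast and macrophage markers moved between the same groups, and their part in these changes was not tested.

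**Figure D1:**
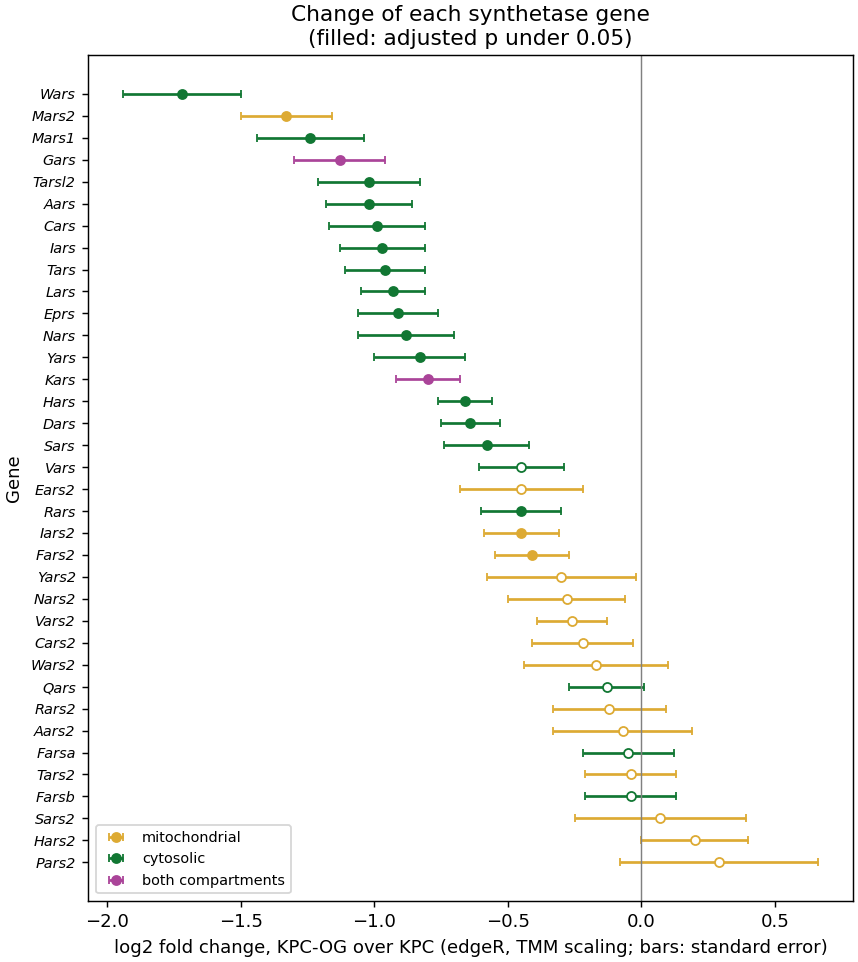
Log2 fold change of each of the 36 synthetase genes, KPC-OG over KPC, from edgeR on TMM-scaled counts of 4 libraries per group, with bars for the standard error and filled points for adjusted p under 0.05. The cytosolic genes run from -1.72 to -0.04 and the mitochondrial ones from -1.33 to 0.29.

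Wars, the tryptophan enzyme, was by far the most abundant member, with a mean of 122 TPM over all libraries, where TPM is a level per transcript length. It lies on chromosome 12 from 108860030 to 108894174 (GRCm38). Wars measured 523, 399, 286 and 408 CPM in KPC libraries 1 to 4, and 140, 101, 147 and 104 CPM in KPC-OG libraries 1 to 4. Every KPC library was well above every KPC-OG library, and KPC 3 was the lowest of its group. Its log2 change was -1.72 ± 0.22 (SE, edgeR adjusted p = 0.000803), the lowest value among the 36. Wars made up 27.0%, 27.5%, 19.9% and 24.5% of the TPM of all members in KPC, and 14.5%, 13.0%, 15.5% and 13.4% in KPC-OG. Wars is also known as an interferon-induced gene.

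Lars, the cytosolic leucine enzyme and a member of the multi-synthetase complex, had 68.2, 56.1, 55.1 and 67.2 CPM in KPC and 33.1, 29.7, 34.7 and 31.9 CPM in KPC-OG. Its libraries were tight within each group and the groups did not overlap (log2 change -0.93 ± 0.12, edgeR adjusted p = 0.00083). Lars is a separate gene from Lars2. Gars, the glycine enzyme, read 107, 72, 71.2 and 87.5 CPM in KPC and 40.4, 32.9, 46 and 34.6 CPM in KPC-OG, a log2 change of -1.13 ± 0.17 (edgeR adjusted p = 0.00133). Kars, the lysine enzyme, read 54.9, 45.6, 43.4 and 55.4 CPM in KPC and 31.1, 27.8, 28.8 and 26.9 CPM in KPC-OG, a log2 change of -0.80 ± 0.12 (edgeR adjusted p = 0.00145). For both genes the highest KPC-OG library lay below the lowest KPC library. Tarsl2, a second threonine enzyme of the cytosol and the least abundant cytosolic member at a mean of 3.43 TPM, read 12.2, 8.62, 8.21 and 9.27 CPM in KPC and 4.35, 4.24, 5.69 and 4.72 CPM in KPC-OG. It fell as well, by 1.02 ± 0.19 on the log2 scale (edgeR adjusted p = 0.00287), with no overlap between the groups.

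The other cytosolic genes that fell had log2 changes from -1.24 for Mars1, the methionine enzyme, to -0.45 for Rars, the arginine enzyme. Between them lay Aars (alanine, -1.02), Cars (cysteine, -0.99), Iars (isoleucine, -0.97), Tars (threonine, -0.96), Eprs (a fused glutamate and proline enzyme, -0.91), Nars (asparagine, -0.88), Yars (tyrosine, -0.83), Hars (histidine, -0.66), Dars (aspartate, -0.64) and Sars (serine, -0.58). Their edgeR adjusted p-values were 0.0016 for Hars and 0.00205 for Dars, but 0.021 for Sars and 0.0365 for Rars. Sars passed in 4 of the 8 fits that each left out 1 library, and was lost without KPC 1, KPC 4, KPC-OG 2 or KPC-OG 4 (highest edgeR adjusted p = 0.0636). Rars passed in 2 of the 8, without KPC 3 or without KPC-OG 1, and its highest edgeR adjusted p was 0.0961. The groups did not overlap in 14 of the 19 cytosolic genes, and in both that serve the 2 compartments, with the lower values in KPC-OG. Over all tested genes 17.0% had that pattern.

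The 4 cytosolic genes that did not pass were Vars, Qars, Farsa and Farsb. Vars, the valine enzyme and the second most abundant member at 47.8 TPM, had 95.5, 87.9, 111 and 95.2 CPM in KPC and 75.2, 67.9, 87.7 and 53.9 CPM in KPC-OG. The groups just failed to overlap, and the log2 value was -0.45 ± 0.16 (edgeR adjusted p = 0.0551). Without KPC-OG 3, the highest library of its group, the edgeR adjusted p for Vars was 0.0158, and with DESeq2 it was 0.0247. Vars passed in only 1 of the 8 fits that each left out 1 library. Its highest edgeR adjusted p was 0.138, without KPC-OG 4. Qars, the glutamine enzyme, had a log2 value of -0.13 ± 0.14 (edgeR adjusted p = 0.51). Its libraries read 45.7, 34.1, 32.3 and 42.3 CPM in KPC and 39, 31.8, 35.9 and 34.9 CPM in KPC-OG. Farsa and Farsb encode the alpha and beta subunits of the cytosolic phenylalanine enzyme. Farsa read 14.1, 14.4, 12.2 and 9.61 CPM in KPC and 13, 11, 14 and 10.7 CPM in KPC-OG, and Farsb 17, 22.1, 14.8 and 20.1 against 21.1, 18.5, 13.3 and 19. Both subunits overlapped between the groups, with log2 values of -0.05 ± 0.17 and -0.04 ± 0.17.

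The genes were also split by membership of the multi-synthetase complex. Of the 8 genes whose enzymes sit in the complex, 7 fell, with a median log2 change of -0.86. Of the 13 cytosolic or shared genes outside it, 10 fell, with a median of -0.88. The 3 scaffold proteins of the complex, Aimp1, Aimp2 and Eef1e1, did not pass by edgeR, DESeq2 or limma-voom, and none reached an unadjusted p under 0.05. Aimp1 had a log2 value of -0.02 ± 0.13, with 17.7, 13.5, 17.2 and 17.4 CPM in KPC and 15.8, 16.9, 16.9 and 15.2 CPM in KPC-OG. Aimp2 had -0.28 ± 0.28, with 10.1, 5.06, 6.09 and 4.04 CPM in KPC and 5.5, 6.39, 3.99 and 4.81 CPM in KPC-OG. Both overlapped between the groups. Synthetases also fall into 2 unrelated structural classes. Of the 9 cytosolic or shared genes of class I, 7 fell (median -0.93), and of the 11 of class II, 9 fell (median -0.80), with Eprs, which holds 1 domain of each class, counted in neither.

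**Figure D2:**
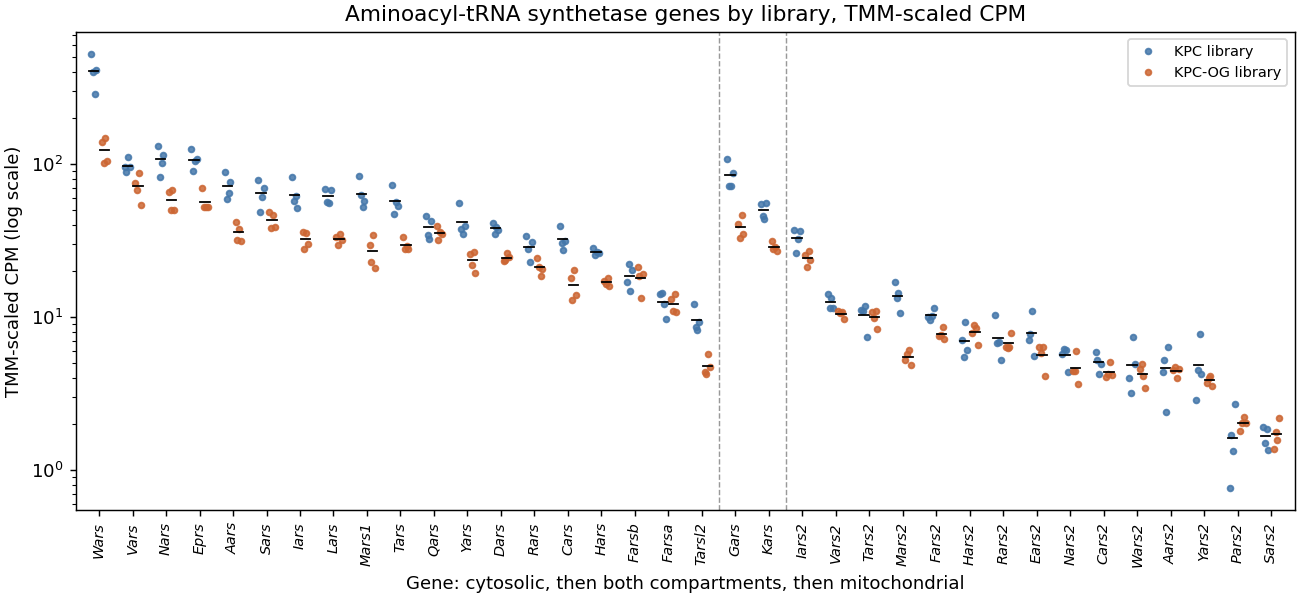
TMM-scaled CPM (log axis) of each synthetase gene in the 4 KPC and 4 KPC-OG libraries, 1 point per library, with a short bar at each group's mean. Dashed lines part the cytosolic, shared and mitochondrial genes, and the KPC-OG points lie below the KPC points for 14 of the 19 cytosolic genes and 3 of the 15 mitochondrial genes.

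The DNA before and around the start sites of these genes was read from RefSeq (GRCm38.p6) to show which known elements the members hold. A 300-base window, 250 bases before the start site and 50 after, was at hand for 27 of the 36 members. The amino acid response element, the sequence through which ATF4 acts, was searched as TGATGNAA on both strands. It occurred in 5 of the 14 cytosolic or shared members with a window (35.7%), in 0 of 13 mitochondrial members, and in 4.51% of all 27025 genes with a window. All 5 genes fell, as did 11 of the 14 with a window, so their fall does not set the 5 apart. For 4 of the 5 genes the match is given with its neighbours as 30 bases read 5′ to 3′ along the gene, with the match in capitals. Some matches lie on the opposite strand and so read in reverse complement.
Gars, chr6:55037960-55037989, + strand: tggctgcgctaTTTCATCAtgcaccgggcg
Iars, chr13:49682126-49682155, + strand: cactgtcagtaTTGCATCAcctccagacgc
Tars, chr15:11399655-11399684, - strand: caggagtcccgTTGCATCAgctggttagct
Yars, chr4:129189895-129189924, + strand: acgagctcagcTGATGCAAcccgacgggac

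Gars and Tars carry the match just before the start site, and their whole 250 bases before the start are given to show its place. The match lies close to the 3′ end of both sequences, and the capitals again mark it.
Gars, chr6:55037751-55038000, + strand: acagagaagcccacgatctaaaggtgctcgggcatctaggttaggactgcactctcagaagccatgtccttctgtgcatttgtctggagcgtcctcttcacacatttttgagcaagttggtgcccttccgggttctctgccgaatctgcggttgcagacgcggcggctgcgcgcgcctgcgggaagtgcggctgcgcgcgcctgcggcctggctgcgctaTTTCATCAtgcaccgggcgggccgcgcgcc
Tars, chr15:11399659-11399908, - strand: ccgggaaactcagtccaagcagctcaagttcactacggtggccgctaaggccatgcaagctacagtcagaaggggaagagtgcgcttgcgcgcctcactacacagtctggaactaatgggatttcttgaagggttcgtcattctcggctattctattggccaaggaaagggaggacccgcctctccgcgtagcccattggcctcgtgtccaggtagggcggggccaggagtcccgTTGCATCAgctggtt

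Another motif, the E-box CACGTG bound by MYC and its relatives, occurred in 4 of the 14 cytosolic or shared windows (Aars, Farsb, Iars and Tars), in 1 of the 13 mitochondrial windows (Ears2) and in 8.09% of all genes. A match is a description of the letters in these windows and says nothing of a factor's binding. No window was at hand for Cars, Hars, Hars2, Lars, Nars, Pars2, Rars, Vars and Wars.

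Among the mitochondrial synthetases, Mars2, the methionine enzyme, fell. Its values were 16.8, 13.3, 14.3 and 10.6 CPM in KPC and 5.26, 5.69, 6.08 and 4.87 CPM in KPC-OG. The lowest KPC library was above the highest KPC-OG library by a wide margin, and the log2 change was -1.33 ± 0.17 (edgeR adjusted p = 0.000751). Mars2 lies on chromosome 1 from 55237177 to 55248470 (GRCm38), and its transcript in the files is 11294 bases long. Per length it was the least abundant of the 36, at a mean of 1.08 TPM.

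Iars2, the isoleucine enzyme and the most abundant mitochondrial member at 11.1 TPM, had 36.8, 26.2, 32.3 and 36.6 CPM in KPC and 25.4, 21.2, 26.9 and 23.5 CPM in KPC-OG. KPC 2 lay within the KPC-OG range. Its log2 change was -0.45 ± 0.14 (edgeR adjusted p = 0.0315). Fars2, the phenylalanine enzyme, which works as a single chain in mitochondria, read 9.91, 9.56, 10.1 and 11.5 CPM in KPC and 7.54, 7.58, 8.63 and 7.13 CPM in KPC-OG. The groups did not overlap, and its log2 change was -0.41 ± 0.14 (edgeR adjusted p = 0.0425). Both calls were weak: each passed in 2 of the 8 fits that left out 1 library, which were those without KPC 2 or without KPC-OG 3. The highest edgeR adjusted p was 0.0952 for Iars2, without KPC-OG 2, and 0.115 for Fars2, without KPC-OG 4.

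The 12 mitochondrial genes that did not pass had log2 values from -0.45 for Ears2 (glutamate, edgeR adjusted p = 0.165) to 0.29 for Pars2 (proline, edgeR adjusted p = 0.581). Vars2, the valine enzyme and the second most abundant of the mitochondrial group at 10.2 TPM, read 14.1, 11.4, 13.2 and 11.5 CPM in KPC and 11, 10.6, 10.7 and 9.69 CPM in KPC-OG. The groups lay side by side without overlap, but the log2 value of -0.26 ± 0.13 did not pass (edgeR adjusted p = 0.151). Pars2 had 0.762, 1.69, 1.32 and 2.7 CPM in KPC and 1.79, 2.02, 2.22 and 2.02 CPM in KPC-OG. Sars2, the serine enzyme, had 1.91, 1.5, 1.85 and 1.35 CPM in KPC and 1.37, 1.78, 1.57 and 2.17 CPM in KPC-OG. Both sets of values overlapped, and these are thinly measured genes, with 4 to 16 reads of Pars2 and 7 to 10 reads of Sars2 in each KPC library. The rest were Yars2 (tyrosine, -0.30), Nars2 (asparagine, -0.28), Cars2 (cysteine, -0.22), Wars2 (tryptophan, -0.17), Rars2 (arginine, -0.12), Aars2 (alanine, -0.07), Tars2 (threonine, -0.04) and Hars2 (histidine, 0.20).

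Depth differs between the compartments. The median cytosolic gene had 282 reads in KPC and 1002 in KPC-OG, and the median mitochondrial gene had 33.7 and 168. The median standard error of the log2 change was 0.16 for cytosolic genes and 0.21 for mitochondrial genes.

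The ratio of cytosolic to mitochondrial synthetase RNA within each library does not depend on how libraries are scaled. The summed TPM of the 19 cytosolic genes over that of the 15 mitochondrial genes had a log2 value of 3.51, 3.35, 3.05 and 3.33 in KPC and of 2.79, 2.50, 2.65 and 2.53 in KPC-OG. All KPC libraries were higher than all KPC-OG libraries. As a linear ratio, cytosolic RNA was 9.98 ± 1.27 times the mitochondrial RNA in KPC and 6.16 ± 0.564 times in KPC-OG (SD, n = 4 each). The difference of the mean log2 ratios was -0.69. Leaving out Wars lowered it to -0.46, from 2.79 ± 0.12 in KPC to 2.33 ± 0.12 in KPC-OG (SD, n = 4 each), and the groups still did not overlap. Since the members were chosen with results known, no p-value is given for this summed ratio. Mitochondrial genes made up 7.31%, 8.10%, 9.76% and 8.10% of the members' TPM in KPC and 11.6%, 13.7%, 12.5% and 13.5% in KPC-OG.

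**Figure D3:**
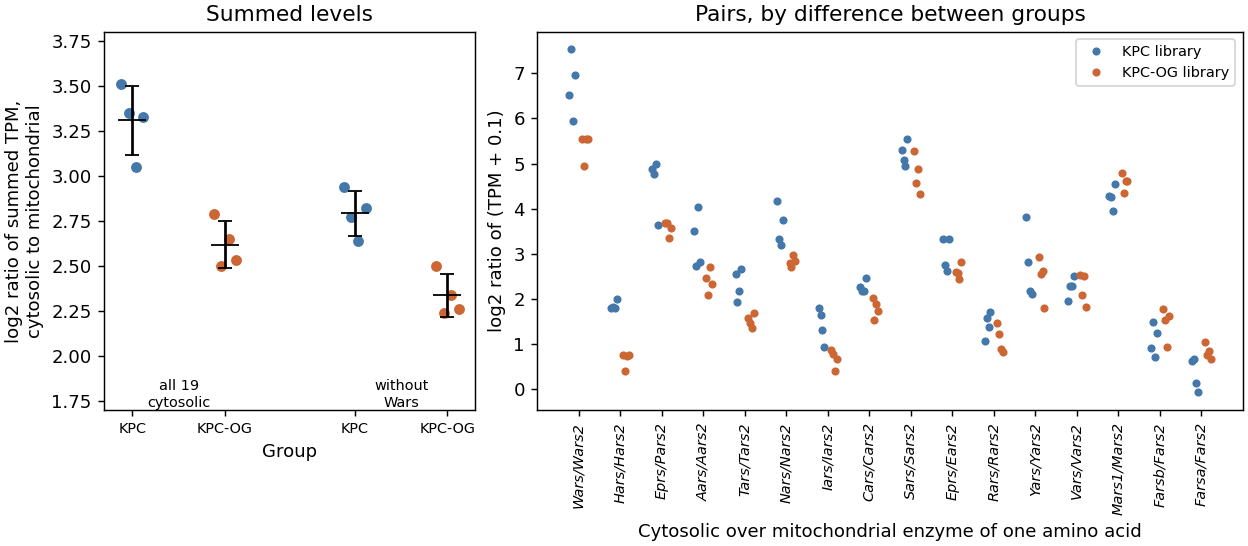
Left, log2 ratio of the summed TPM of cytosolic over mitochondrial synthetases in each library, with all 19 cytosolic genes and without Wars. Right, log2 TPM ratio of 16 cytosolic and mitochondrial pairs for the same amino acid, 1 point per library; the mean ratio is lower in KPC-OG for 13 of the 16.

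Pairs of enzymes for the same amino acid were compared as well. Each pair counts alike whatever its level, so the pairs do not show which genes carried the summed ratio. In 13 of 16 pairs the mean log2 ratio of the cytosolic to the mitochondrial gene was lower in KPC-OG, with a median difference of -0.46. With a pseudocount of 1 TPM in place of 0.1 this was 11 of 16, with a median difference of -0.24, and 5 pairs in place of 7 were lower without overlap. Eprs and Fars2 each enter 2 of the pairs. The lowest difference, -1.34, was that of tryptophan: Wars over Wars2 had log2 ratios of 6.52, 7.53, 5.95 and 6.96 in KPC and 5.55, 4.94, 5.55 and 5.54 in KPC-OG. For histidine, Hars over Hars2 had 1.81, 1.82, 1.81 and 2.01 in KPC and 0.76, 0.41, 0.73 and 0.76 in KPC-OG, a difference of -1.20. In TPM the histidine pair was tight within each group and clearly apart between them. From estimated reads its log2 ratios were 2.01, 2.24, 1.53 and 2.11 in KPC and 1.13, 0.90, 1.09 and 1.29 in KPC-OG. The difference was then -0.87, less tight in KPC but still without overlap.

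Hars and Hars2 are neighbours on chromosome 18 that run in opposite directions from a shared start region, and their annotated spans overlap by 198 bases. Hars read 28.2, 25.5, 26.5 and 26.3 CPM in KPC and 17.2, 16.4, 18 and 16 CPM in KPC-OG. Hars2 read 7.05, 5.44, 9.27 and 6.07 CPM in KPC and 7.9, 8.82, 8.43 and 6.54 CPM in KPC-OG. Every Hars value was lower in KPC-OG than any in KPC, and Hars2 overlapped between the groups. Their transcripts share 0.558% of the 20-base words of Hars, the unit by which the authors' program assigned reads. That share counts forward strands only and so leaves out words shared in reverse complement. Strand is not stated in the sources used here, so reads from the overlap cannot be told apart.

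The 3 pairs that went the other way were methionine and the 2 phenylalanine pairs. Mars1 over Mars2 differed by 0.33 with overlapping groups, and by 0.42 without overlap with a pseudocount of 1 TPM. Farsa over Fars2 had log2 ratios of 0.63, 0.67, 0.13 and -0.07 in KPC and 1.05, 0.75, 0.84 and 0.68 in KPC-OG, a difference of 0.49 and the highest of the 16. For Farsb over Fars2 the difference was 0.38. The valine pair, Vars over Vars2, was near 0 at -0.02. With a pseudocount of 1 TPM the serine pair turned from -0.45 to 0.13 and the valine pair to 0.09.

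The direction of the members' change depended on what they were compared with. As deposited TPM, a share of all transcripts in a library, the summed level of the 36 genes was 496, 529, 456 and 493 TPM in KPC and 946, 933, 595 and 1018 TPM in KPC-OG. It was higher in every KPC-OG library than in any KPC library, and least so in KPC-OG 3. Scaled by library size alone, the median log2 value was 0.84 for cytosolic and 1.50 for mitochondrial genes, while that of all tested genes was 1.82. With TPM and a pseudocount of 0.1, the 3 medians were 0.87, 1.42 and 1.69. The cytosolic median minus that of all tested genes was -0.96 with TMM, -0.82 with TPM and this pseudocount, and -0.49 with TPM and a pseudocount of 1. Wars was level in TPM: it had 134, 145, 90.6 and 121 TPM in KPC and 137, 122, 91.9 and 136 TPM in KPC-OG. Mars2 in TPM also overlapped between groups, with 0.996, 1.1, 1.05 and 0.732 in KPC and 1.13, 1.44, 0.821 and 1.34 in KPC-OG.

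**Figure D4:**
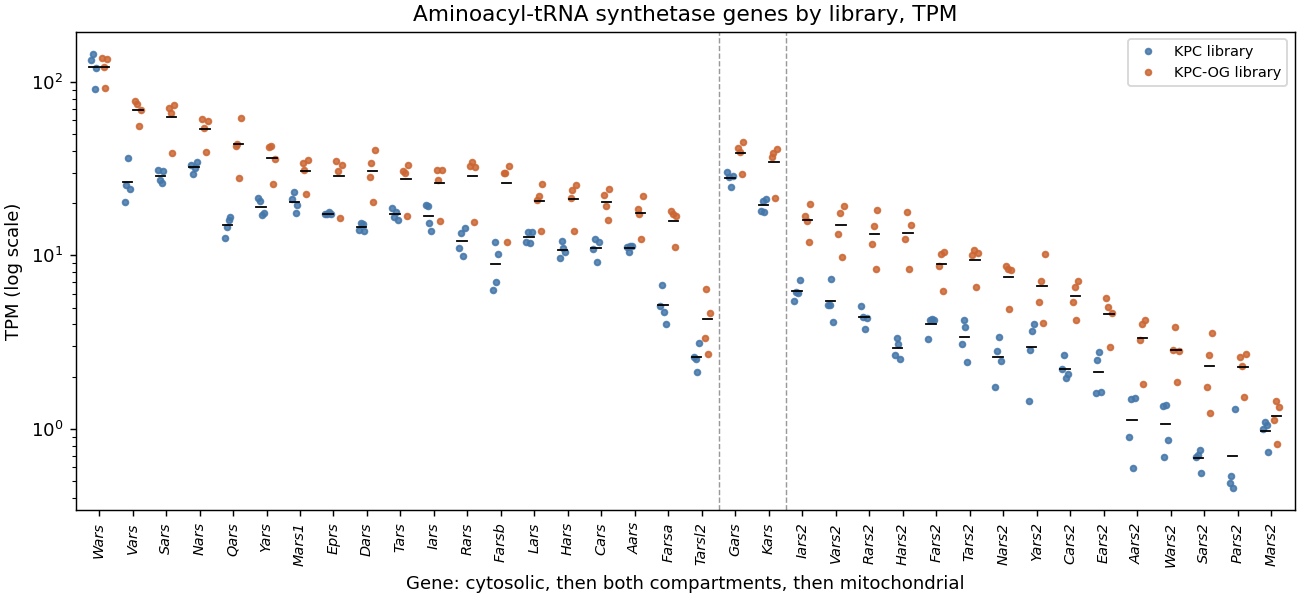
Deposited TPM (log axis) of each synthetase gene in the 8 libraries, 1 point per library, with a short bar at each group's mean and dashed lines between the compartments. Most genes are higher in KPC-OG on this scale, while Wars covers 90.6 to 145 TPM in KPC and 91.9 to 137 TPM in KPC-OG.

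**Figure D5:**
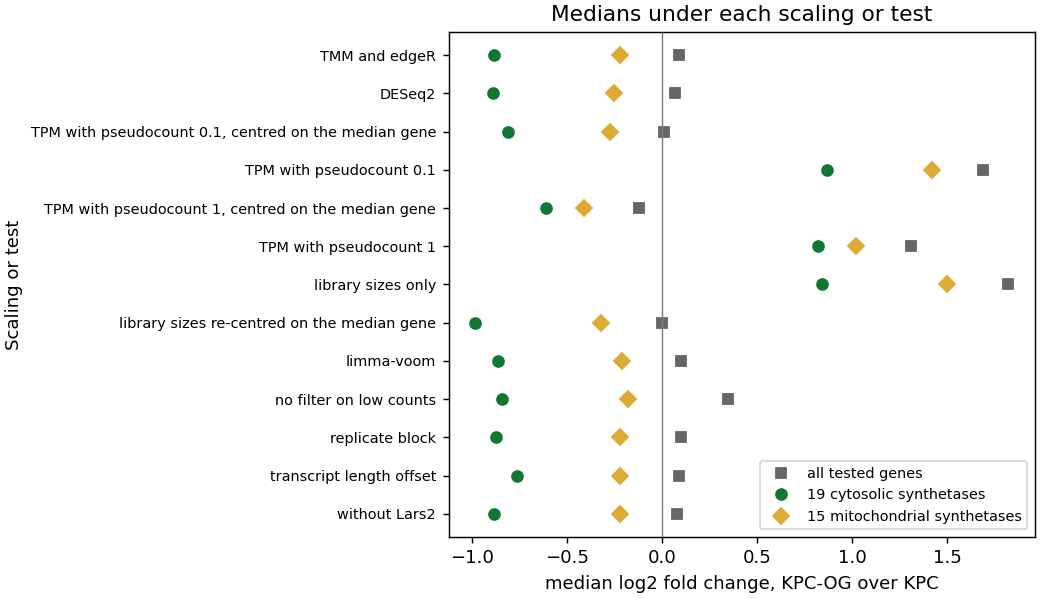
Median log2 value, KPC-OG over KPC, of all tested genes, the 19 cytosolic and the 15 mitochondrial synthetases under each way of scaling and testing. The cytosolic median lies below the mitochondrial one, and the mitochondrial one below that of all genes, under every setting shown, whether the values are above or below 0.

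On the TMM scale most listed genes of the amino acid response fell, as most cytosolic synthetases did. Of 13 listed genes, 10 fell and none rose by edgeR, DESeq2 or limma-voom or at an unadjusted p under 0.05, with a median log2 change of -0.94. Slc7a5, the light chain of a large neutral amino acid transporter, read 124, 68, 90.3 and 77.2 CPM in KPC and 25.3, 20.3, 38.5 and 18 CPM in KPC-OG. Its partner chain Slc3a2 read 114, 72.2, 77.9 and 67.6 CPM in KPC and 30.4, 24.2, 39.5 and 24.4 CPM in KPC-OG. Psat1, an enzyme of serine synthesis, read 52.8, 41.1, 45.3 and 44.5 CPM in KPC and 14.2, 11.9, 23.3 and 11.6 CPM in KPC-OG. In all 3 genes the groups stood apart, and KPC-OG 3 was the highest library of its group. Their log2 changes were -1.82 ± 0.27, -1.49 ± 0.21 and -1.60 ± 0.22, with edgeR adjusted p of 0.00133, 0.00116 and 0.00103. Atf4, named after its values were seen, fell by 0.94 ± 0.18 (edgeR adjusted p = 0.00367). Ddit3, a target of ATF4 in prolonged stress, also named after its values were seen, had a log2 value of 0.21 ± 0.34 and did not pass.

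The rest of the mitochondrial translation machinery was measured for comparison. Of 78 mitochondrial ribosomal proteins, 10 rose (12.8%) and 6 fell (7.69%), with a median log2 change of 0.03. Both shares are below the 17.4% and 16.6% of all tested genes. The fall was unsteady: with 1 library left out, 0 to 9 fell, with 0 without KPC 1, KPC 4 or KPC-OG 4 and 9 without KPC-OG 3, while 5 to 9 rose. Mrpl33, a protein of the large subunit, rose by 1.24 ± 0.15 (edgeR adjusted p = 0.000686), from 4.38, 6, 6.09 and 5.06 CPM in KPC to 12.6, 12.6, 13.7 and 12 CPM in KPC-OG. Mrpl52, also of the large subunit, read 14.5, 14.6, 11.4 and 14.3 CPM in KPC and 20.9, 19.4, 18.2 and 19.4 CPM in KPC-OG (0.50 ± 0.12, edgeR adjusted p = 0.012). Mrpl20, another, read 14.3, 13.3, 15.4 and 10.3 CPM in KPC and 19.7, 19.4, 25.7 and 18.6 CPM in KPC-OG (0.65 ± 0.16, edgeR adjusted p = 0.0121). All 3 were higher in every KPC-OG library than in any KPC library.

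Of 14 genes of mitochondrial tRNA charging, processing or modification, 4 fell by edgeR (28.6%), against 16.6% of all tested genes. None rose, the median was -0.18, and at an unadjusted p under 0.05 1 was higher. Mto1, which modifies the wobble base of some mitochondrial tRNAs, read 9.15, 12.9, 12.2 and 10.8 CPM in KPC and 5.44, 5.66, 6.73 and 6.75 CPM in KPC-OG (-0.87 ± 0.16, edgeR adjusted p = 0.00329). Elac2, which trims the 3′ ends of tRNAs, read 16.2, 11.8, 15.1 and 14.7 CPM in KPC and 8.45, 7.66, 11.4 and 8.71 CPM in KPC-OG (-0.68 ± 0.17, edgeR adjusted p = 0.0115). Trit1, which modifies a base beside the anticodon, read 9.91, 7.87, 11.4 and 8.43 CPM in KPC and 5.5, 5.85, 6.21 and 6.12 CPM in KPC-OG (-0.66 ± 0.16, edgeR adjusted p = 0.0117). The groups did not overlap for any of the 3, and came closest for Elac2, between KPC 2 and KPC-OG 3. Of 9 mitochondrial translation factors, the elongation factor Gfm1 fell (-0.58 ± 0.16, edgeR adjusted p = 0.0192) and no other passed by edgeR. Without KPC-OG 2 or KPC-OG 4 none of the 9 fell. DESeq2 called 1 of the 9 higher. Gfm1 read 19.3, 14.6, 23.6 and 16 CPM in KPC and 13.5, 10.9, 12.3 and 12 CPM in KPC-OG, without overlap. Gfm2, the recycling factor, read 17.9, 18, 15.6 and 13.8 CPM in KPC and 16.4, 14.6, 18 and 13.6 CPM in KPC-OG, and its log2 value of -0.07 ± 0.14 did not pass.

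Of 7 enzymes that edit mischarged tRNA or make selenocysteine tRNA, 2 fell by edgeR (28.6%), against 16.6% of all tested genes. None rose by any of the 3 tools or at an unadjusted p under 0.05. Sepsecs, which makes selenocysteine on its tRNA, read 18.5, 16.3, 18.5 and 15.5 CPM in KPC and 7.81, 9.08, 11.8 and 7.58 CPM in KPC-OG (-0.93 ± 0.17, edgeR adjusted p = 0.00283). Aarsd1, which clears alanine tRNA charged with the wrong amino acid, read 16.4, 12, 13.5 and 13.1 CPM in KPC and 9.27, 7.53, 8.76 and 6.8 CPM in KPC-OG (-0.77 ± 0.16, edgeR adjusted p = 0.005). Both genes had lower values in every KPC-OG library than in any KPC library.

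Reads can also move between the transcripts of a gene. Among the 21 members with at least 50 reads in every library, the share of reads on protein-coding transcripts was lower in KPC-OG without overlap in 3, against 7.73% of 4904 genes with that depth. These were Yars, with 66.9%, 59.9%, 60.9% and 65.3% in KPC and 52.3%, 46.6%, 47.8% and 52.9% in KPC-OG, Wars, with 97.1% to 99.0% against 92.3% to 96.4%, and Cars, with 95.5% to 100% against 89.3% to 94.7%. The Yars share moved most of the 3, and in Wars and Cars nearly all reads were on coding transcripts in both groups. For Farsb the share was 33.2%, 45.1%, 19.1% and 26% in KPC and 73.3%, 54.7%, 34.9% and 88.1% in KPC-OG, which overlapped. The split of reads between transcripts of 1 gene is an estimate, and its error is not in the files.

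Most members shared few 20-base words with transcripts of other genes. Transcripts were compared on the forward strand only, so words shared with the reverse complement of another transcript were not counted. The median member shared 0.764% of its 20-base words with transcripts of another gene, and 33 of 36 shared under 5%. The exceptions were Iars with 21.8%, of which 20.9% with Gm4849, Kars with 12.7%, of which 6.45% with Gm8428, and Yars with 7.08%. Read counts of these 3 are less certain for that reason. In the annotation, 12 of the 36 overlap a gene on the opposite strand, among them Wars, which overlaps Wdr25 by 544 bases.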

How the data were processed

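Per the file headers, the authors estimated transcripts with Sailfish 0.6.3 (k-mers of 20 bases, 1000 iterations, bias corrected) on Ensembl release 76 mouse cDNA. The deposited estimated counts give each transcript its assigned reads and can be fractional. The deposited TPM values are abundances scaled within each library. STAR 2.0.4b, bcl2fastq, limma and edgeR are listed, with no roles, per the submitters' processing notes.

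Estimated counts were summed to GENCODE M21 genes (GRCm38; 83827 of 86127 transcripts matched) and rounded. The 2300 unmatched transcripts, with 1.45% to 4.23% of reads, were left out. Of the members, 35 matched by symbol, and Mars1 matched as Mars through RefSeq synonyms. Genes were tested by edgeR 4.0.16 quasi-likelihood (R 4.3.3) with TMM, filterByExpr, no block and Benjamini-Hochberg adjustment over 14267 genes. The SE is the absolute log2 change over the root of F. Alternatives were DESeq2 1.42.0, limma-voom 3.58.1, other scalings, a length offset, no filter, a replicate block and leaving out each library. Pair ratios used log2(TPM + 0.1). The script was tested on simulated data. TMM factors were 0.484 to 0.654 in KPC and 1.14 to 2.27 in KPC-OG. No 2 libraries agreed within sampling noise.

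Members and gene lists were chosen with earlier results of these data known. All 36 members may be named. Full values were given, in each compartment, for the 4 called genes with the smallest adjusted p, the 2 highest and 2 lowest by TPM, and the 3 called genes with the smallest adjusted p in each related list, filled to 2 by level. Values of other genes were added after they were seen. One engineered allele and 1 promoter sequence are not reported here.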

Additional observations from a re-analysis of the deposited data

Results flagged for a closer look

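In 3 of 74 groups of 4 libraries that were looked at for the members, 1 library lay far from the other three, by a test that chance meets in about 1 in 20 groups. Eprs had 69.4 CPM in KPC-OG 1 against 51.9 to 52.5 CPM in the others of that group. Cars2 had 5.1 CPM in KPC-OG 3 against 4.07 to 4.24 CPM, and Rars2 had 7.9 CPM in KPC-OG 4 against 6.26 to 6.35 CPM. Without KPC-OG 1, the log2 change of Eprs was -1.03, and it still passed.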

How the results depend on the processing

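Read depth limits the mitochondrial genes most, and all 4 KPC libraries are shallower than those of KPC-OG. Direction depends on scaling, and fitting without Lars2 moved no member's call, while the order of the medians did not change under any setting tried. The replicate numbers gave no clear pairing of the libraries: same-numbered deviations correlated at 0.274, 0.275, 0.0385 and 0.0361. KPC 1 and KPC 2 each correlated best with the same-numbered KPC-OG library, KPC 3 with KPC-OG 1 and KPC 4 with KPC-OG 2. Whether same-numbered libraries shared a batch was not tested. A replicate block gave 2478 genes higher and 2417 lower, with 16 cytosolic, 2 shared and 2 mitochondrial members lower. Fars2 was lost with it (adjusted p = 0.0758) and Vars gained (adjusted p = 0.0254).

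Of all genes, 13069 were higher and 99 lower with library sizes alone, 12898 and 123 with TPM + 0.1, and 12946 and 125 with TPM + 1. Under these 3 settings 17, 16 and 16 cytosolic, 2, 1 and 1 shared, and 14, 14 and 14 mitochondrial members were higher, and 0 in each compartment lower. Re-centring library sizes on the median gene gave 913 higher and 1423 lower. Centring TPM + 1 on the median gene, an alternative chosen after seeing the data as was centred TPM + 0.1, gave 3791 lower. Mitochondrial members higher were 1 with centred TPM + 1 and 1 with a length offset (both Hars2), and those lower were 1 after re-centring and 1 with no filter. The cytosolic minus mitochondrial median, -0.66, was -0.20 with TPM + 1, centred or not.

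With each library left out in turn, 1689 to 2881 genes were higher and 1705 to 2548 lower, cytosolic members lower numbered 13 to 15, shared ones 2, mitochondrial ones 1 to 3, and the difference of medians ran from -0.75 to -0.55. These log2 values crossed 0: Aars2 -0.28 to 0.12, Farsa -0.17 to 0.02, Farsb -0.14 to 0.09, Rars2 -0.26 to 0.10, Sars2 -0.06 to 0.17, Tars2 -0.18 to 0.04 and Wars2 -0.34 to 0.07. With centred TPM + 1, Farsa was 0.02, Qars 0.02, Pars2 -0.47 and Sars2 -0.50. With centred TPM + 0.1, Pars2 was -0.02 and Sars2 -0.15, and with no filter Tars2 was 0.00.

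With library sizes alone, with TPM + 0.1 and with TPM + 1, in that order, 32 members that were below 0 had log2 values above 0, and the cause was not tested: Aars (0.71, 0.64, 0.60), Aars2 (1.67, 1.51, 1.02), Cars (0.70, 0.87, 0.82), Cars2 (1.50, 1.34, 1.07), Dars (1.10, 1.02, 0.98), Ears2 (1.25, 1.08, 0.83), Eprs (0.84, 0.67, 0.64), Fars2 (1.30, 1.11, 0.97). Further values were those of Farsa (1.65, 1.61, 1.45), Farsb (1.72, 1.50, 1.41), Gars (0.58, 0.46, 0.45), Hars (1.07, 0.92, 0.87), Iars (0.76, 0.59, 0.57), Iars2 (1.28, 1.33, 1.22), Kars (0.94, 0.79, 0.76), Lars (0.80, 0.66, 0.62). Further values were those of Mars1 (0.45, 0.58, 0.56), Mars2 (0.40, 0.25, 0.14), Nars (0.84, 0.71, 0.70), Nars2 (1.40, 1.50, 1.24), Qars (1.61, 1.50, 1.45), Rars (1.31, 1.18, 1.13), Rars2 (1.66, 1.51, 1.35), Sars (1.15, 1.08, 1.06). Further values were those of Tars (0.79, 0.64, 0.61), Tars2 (1.67, 1.45, 1.24), Tarsl2 (0.70, 0.64, 0.51), Vars (1.23, 1.40, 1.37), Vars2 (1.48, 1.42, 1.28), Wars2 (1.57, 1.34, 0.88), Yars (0.89, 0.91, 0.88), Yars2 (1.41, 1.15, 0.94).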
